A study of Mus musculus with 8 samples.

Results

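The highest accessible regions that appeared at 120 h post-RA in mouse spermatogonia lay at 4 genes, Rcan3, Abcf1, Fem1a and Txnl4a. These genes were selected on their own 120 h values. They hold 4 of the 5 highest regions called at 120 h only and were taken out of 21490 genes with at least 1 ATAC-seq peak assigned. Calling a region at a timepoint required a peak in each of its 2 libraries. The 4 genes had 18 regions in all, of which 4 were called at 120 h only, 1 per gene, and 5 had a peak in all 8 libraries. Because 120 h values chose the genes, and because a new region could not be called earlier, the values of the new regions and all values at 120 h are given as a description with no test. At these genes, tests were made only of other regions and between timepoints before 120 h.

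ATAC-seq uses a transposase that inserts adapters where DNA is not packed in nucleosomes, so tag coverage marks accessible chromatin. It was measured in eGFP-positive germ cells of PIWIL2-eGFP mice, in which the Piwil2 promoter drives eGFP in all germ cells, so that the sort itself does not separate spermatogonial stages. All groups carried the transgene and were fed WIN 18,446, which blocks RA synthesis, at 100 mg/kg for 7 days from 2 dpp. The 0 h group received no RA, and the others were collected 18, 48 or 120 h after 200 µg RA had been injected at 9 dpp, with 2 libraries for each timepoint, each from the testes of a single mouse. The study takes these timepoints as A undifferentiated, A1/A2, A3 and B spermatogonia. Strain and cell number are C57BL/6 x 129s4/SvJae and 100000 in the labels but C57BL/6 x SJL and 50000 in the methods.

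The libraries held between 24643 and 72215 peaks after the authors had brought them to equal tag numbers, and the lowest summit value called was 24 or 25 in each. Summit values are tag coverage at the highest point of a peak. A library with no peak in a region has coverage below what the caller accepted, and no fold change against it was computed. At least 4 of 5 germ cell genes had a peak within 1000 bp of their start in every library. No library had one at the Leydig or endothelial cell markers. Sertoli cell markers had one at 5 of 5 genes in both 0 h libraries, at 2 to 3 in the 18 h and 48 h libraries and at 3 and 2 in the 120 h libraries. Peritubular markers had one at 1 or 2 of 2 genes in every library. Macrophage markers had one in the 0 h libraries only, at 2 and 1 genes. The part of other cells in the values below was not tested. Markers of undifferentiated spermatogonia had a peak within 1000 bp of their start at 1 or 2 of 4 genes in every library. Markers of differentiating spermatogonia had one at 3 or 4 of 4 genes in every library. The undifferentiated markers Nanos2 and Neurog3 had no peak within 1000 bp of their start in any library. The paper reports accessible chromatin at both of these genes throughout the series, without limiting it to their starts.

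Retinoic acid commits undifferentiated spermatogonia to differentiation, after which they divide through a series of stages up to type B spermatogonia and then enter meiosis. Active gene starts in mammals often sit in CpG islands that are open in many cell types, whereas sites in introns or between genes are more often open in particular cell states. The 4 genes have unrelated known roles. Rcan3 encodes a member of the family of calcineurin regulators, which bind the calcium-dependent phosphatase calcineurin. Abcf1 encodes an ATP-binding cassette protein without a membrane domain that acts in translation initiation. Fem1a encodes a substrate receptor of a CUL2 ubiquitin ligase. Txnl4a encodes a small protein of the U5 particle of the spliceosome.

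The new region of Rcan3 covered 540 bp at chr4:135430171-135430710 (mm10, which is GRCm38), on the minus strand gene. By the GENCODE vM21 annotation its summit lay in the first intron of Rcan3, 3405 bp inside the gene from the start used in the deposited table. The region lay within a short sense intronic transcript, Gm15979, at chr4:135430126-135430841. The sequence at the summit was a tandem repeat with a period of 63 bp and 3 whole copies over 192 bp. The copies are shown because each held the 7 base word AACTGTT, which matches the MYB motif AACNGTT, and because the summits of both 120 h libraries fell in the second copy. The plus strand of the 3 copies reads as follows, with the MYB word in capitals.

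Rcan3 copy 1, chr4:135430331-135430393: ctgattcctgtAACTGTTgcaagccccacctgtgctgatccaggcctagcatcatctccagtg

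Rcan3 copy 2, chr4:135430394-135430456: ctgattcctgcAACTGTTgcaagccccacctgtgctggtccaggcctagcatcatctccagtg

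Rcan3 copy 3, chr4:135430457-135430519: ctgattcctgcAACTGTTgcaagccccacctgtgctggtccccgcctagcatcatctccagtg

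The first and the third copy each shared 61 of 63 bases with the second. The MYB word is its own reverse complement in pattern, so it was counted once and not per strand. In 200 bp windows at the summit, 5.96% of the 1526 regions at 120 h only and 2.27% of the 15536 regions where every library had a peak held a MYB word. Of these windows, 3 of 1526 and 2 of 15536 held 3 or more such words, and the Rcan3 window was 1 of the former. The windows differed in composition, with a median GC content of 48.5% at 120 h only and 61.5% in the shared regions. A word match is a description of the sequence and not a measured binding site.

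The new region of Abcf1 covered 443 bp at chr17:35967434-35967876. Its summit lay in the first intron of Abcf1-201, the full length transcript on the minus strand, 2134 bp inside the gene. None of the 10 motifs searched was found in it. The 200 bp around its summit are shown as the new site with neither a motif match nor a masked repeat at its centre.

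Abcf1, chr17:35967517-35967716, plus strand: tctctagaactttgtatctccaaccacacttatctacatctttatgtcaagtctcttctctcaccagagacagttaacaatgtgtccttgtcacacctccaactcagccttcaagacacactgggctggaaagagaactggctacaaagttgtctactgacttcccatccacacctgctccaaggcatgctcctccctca

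The new region of Fem1a covered 721 bp at chr17:56252095-56252815, upstream of the gene and 4505 bp from its start, and it overlapped no annotated transcript. It held 1 AP-1 word, TGANTCA, at chr17:56252232-56252238, which is in capitals in the 200 bp around the summit below. AP-1 words were present in 5.31% of the windows at 120 h only and in 3.42% of the shared windows.

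Fem1a, chr17:56252189-56252388, plus strand: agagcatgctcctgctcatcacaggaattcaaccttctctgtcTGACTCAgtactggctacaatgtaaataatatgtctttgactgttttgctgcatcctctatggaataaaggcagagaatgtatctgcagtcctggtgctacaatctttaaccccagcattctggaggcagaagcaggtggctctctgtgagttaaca

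The new region of Txnl4a covered 453 bp at chr18:80207636-80208088, with its summit in the second intron of Txnl4a-201 on the plus strand, 1042 bp inside the gene. Gm16286, an annotated gene that shares the same start, also covered it. The nearest annotated transcript start, that of Gm16286-207, lay 580 bp from the summit. Its whole width held 1 STRA8 word and 1 CCAAT word, both outside the 200 bp around the summit. The other motifs searched on both strands were the nuclear receptor element AGGTCA, the direct repeat 5 of retinoic acid receptors, which contains that element, the E-box CACGTG, the cyclic AMP response element, the GC box GGGCGG and the RFX element GTTGCC. Each of these was absent from all 4 new regions over their whole width. In the windows at 120 h only their shares were 9.83% for AGGTCA, 11.8% for the RFX element, 6.16% for the GC box, 2.69% for the E-box and 0.131% for the cyclic AMP response element, and the direct repeat was found in 0 of 1526. For STRA8 and CCAAT these window shares were 5.05% and 17.9%. They are for 200 bp, in which the Txnl4a region held neither word, and not for its whole width.

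None of the 4 new regions held a CpG island by the deposited table, against 7.34% of the regions at 120 h only and 58.6% of the shared regions. GC content was 54.4% at Rcan3, 48.1% at Abcf1, 46.2% at Fem1a and 45.3% at Txnl4a. The share of bases that the genome sequence marks as repeats was 6.30% at Rcan3, 19.6% at Abcf1, 46.2% at Fem1a and 50.6% at Txnl4a. Of the stretches of 32 bases in each region, 86.2% at Rcan3, 100% at Abcf1, 96.5% at Fem1a and 86.5% at Txnl4a occurred once in the genome. The most copies of any stretch were 2 at Rcan3, 1 at Abcf1, 196 at Fem1a and 181 at Txnl4a. Both measures are for whole regions. The tandem repeat of Rcan3, which held both 120 h summits, was not counted apart. In 200 bp windows at the summit, not whole regions, the median repeat share was 7% at 120 h only and 0% in the shared regions.

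The Rcan3 region was the highest of all regions called at 120 h only. Its summit values at 120 h were 740 and 570. Among earlier libraries only 0 h replicate 2 had a peak there, with a value of 84 over 270 bp. The other 5 earlier libraries had no peak. In the 2 libraries at 120 h it ranked 542 of 39551 and 445 of 24643 among all peaks.

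The Abcf1 region had summit values of 387 and 307 at 120 h. It was the only 1 of the 4 new regions with no peak in any of the 6 earlier libraries. Of the peaks of each 120 h library, 6.54% and 8.85% were higher.

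The Fem1a region had summit values of 575 and 292 at 120 h, the widest gap between replicates of the 4. In 0 h replicate 2 a peak of 200 bp with a value of 136 lay in it, and the other 5 earlier libraries had none. A separate region 313 bp away, at chr17:56251146-56251781, had values of 138 and 161 at 0 h, 80 in 48 h replicate 2 and no peak at 18 h or 120 h. Both 0 h libraries had a peak at this neighbouring position, and both 120 h libraries had one at the new position instead.

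The Txnl4a region had summit values of 383 and 245 at 120 h. In 0 h replicate 1 it held a peak of 200 bp with a value of 79, and the other 5 earlier libraries had none. The deposited table also assigns this region to Rbfa, a gene for a ribosome binding factor. In bulk samples, a site open in more cells and a site more open in each cell cannot be told apart. The table further assigns the Abcf1 region to Mir877 and Prr3, and the Fem1a region to A230051N06Rik and Mir7b.

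**Figure D1:**
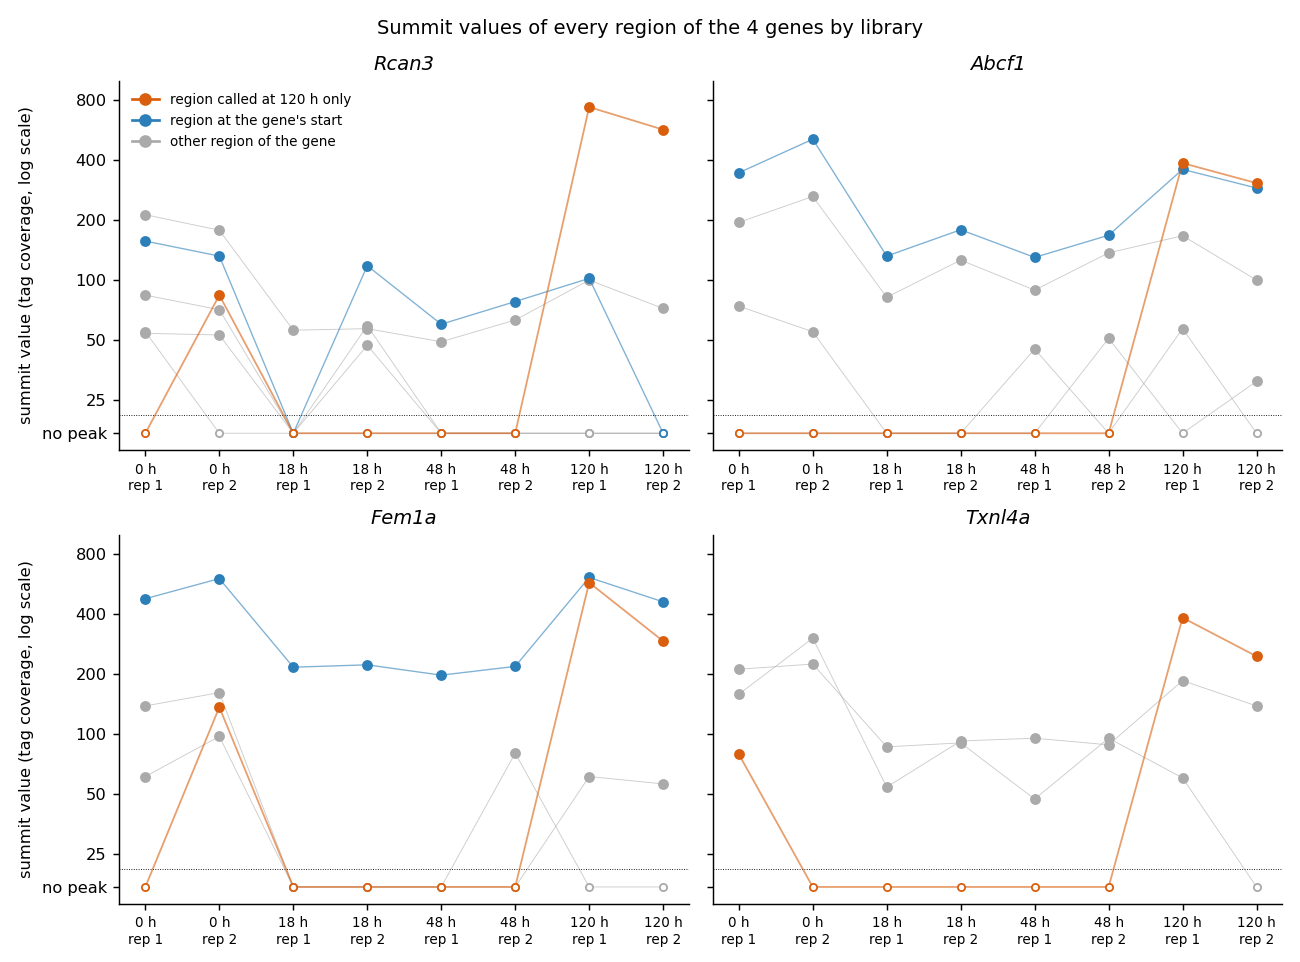
Summit values (tag coverage, log scale) of every region of the 4 genes in each of the 8 libraries, with open points for libraries without a peak. The new regions (orange) reach 245 to 740 at 120 h, and 3 of the 4 also have 1 peak at 0 h, between 79 and 136.

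Replicate 1 was higher than replicate 2 at 120 h in all 4 new regions, by 0.38 at Rcan3, 0.33 at Abcf1, 0.98 at Fem1a and 0.64 at Txnl4a on the log2 scale. The median of this difference was 0.62 over the 1526 regions at 120 h only and 0.54 over the 15536 shared regions, so that a gap of this kind ran through the libraries as a whole.

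Regions at 120 h only made up 1526 of 61310 regions called at any timepoint, or 2.49%, and 7.08% of genes with a called region had 1 or more of them. Their median summit values were 84 and 52 in the 2 libraries at 120 h. By the value in the lower library, Rcan3 came first with 570, Abcf1 next with 307, Fem1a after it with 292 and Txnl4a in the fifth place with 245. Just below Txnl4a came Kifc5b with a lower value of 229. Of the 1526 regions, 695 (45.5%) had a peak in at least 1 earlier library, as did 3 of the 4 new regions described here.

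**Figure D2:**
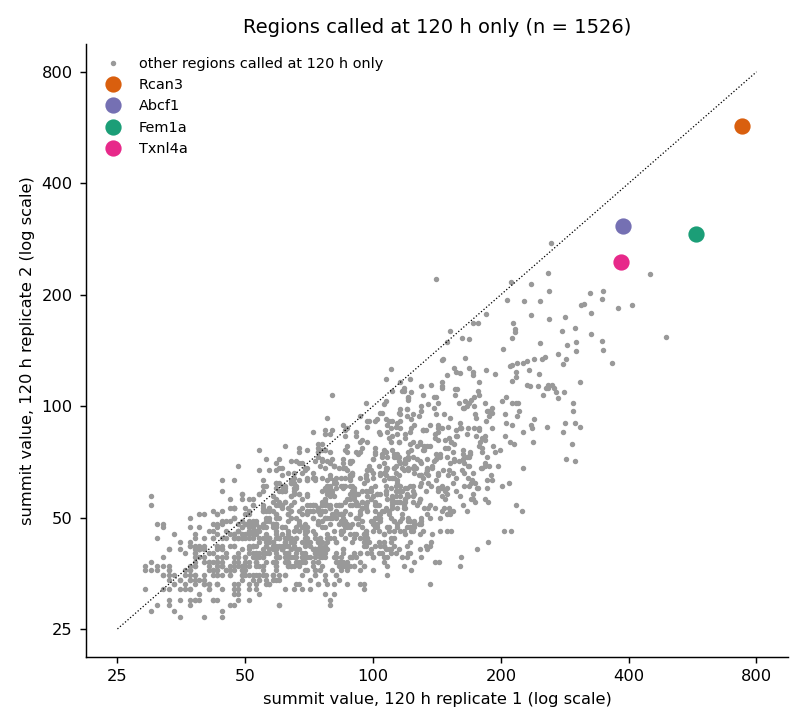
Summit values of the 1526 regions called at 120 h only in replicate 1 (x axis) and replicate 2 (y axis), both on log scales, with the dotted line at equal values. The 4 genes lie at the upper right, and the medians of all regions are 84 and 52.

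The start regions were compared with the new regions as a description. The new regions were chosen for having no call before 120 h, so a difference in course from regions called earlier follows from that choice. The start region of Abcf1, at chr17:35969160-35970324, is also assigned to Gnl1, Mir877 and Prr3. It had values of 346 and 510 before RA and 132 and 179 by 18 h. By 48 h it had 130 and 168, and by 120 h 360 and 290. It was high before RA, lower at 18 h and 48 h, as most shared regions were, and higher again at 120 h. The start region of Fem1a, at chr17:56255855-56256996, had values of 477 and 602 before RA, 216 and 222 by 18 h, 197 and 218 by 48 h and 610 and 460 by 120 h. It followed the same course, and its 120 h values overlapped those at 0 h. The start region of Rcan3, at chr4:135433274-135433948, had 157 and 132 before RA and 118 in the second library of 18 h. It had 60 and 78 by 48 h and 102 in the first library of 120 h. No peak was found in 18 h replicate 1 or 120 h replicate 2, and it was therefore not called at 120 h. At Txnl4a the new region itself lay 978 bp from the gene's start by its nearest summit, within the limit of 1000 bp. No other region lay within that limit, so that no separate start region could be set beside it.

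At 120 h the new region of Rcan3 was 7.25 times as high as its start region in replicate 1, the 1 library where both had a peak. At Abcf1 the new region was 1.075 times as high as the start region in replicate 1 and 1.06 times in replicate 2. At Fem1a the ratio was 0.943 in replicate 1 and 0.635 in replicate 2. Over all regions at 120 h only, paired with each gene that had a start region with a peak in the same library, the median log2 of this ratio was -0.80 in replicate 1 (1038 pairs) and -1.20 in replicate 2 (913 pairs). The 4 new regions were chosen for their 120 h height, so a high place among these pairs follows in part from that choice. The Rcan3 pair was the highest of the 1038. In replicate 1, 24.3% of pairs were above that of Abcf1 and 28.8% above that of Fem1a. In replicate 2 these shares were 13.7% and 34.9%.

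**Figure D3:**
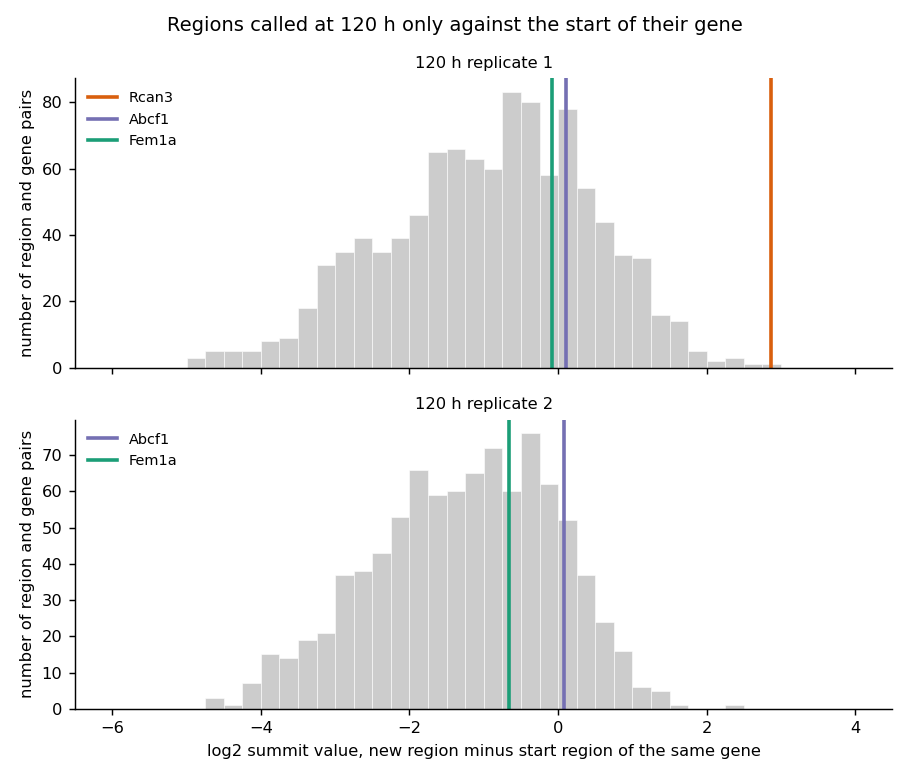
Log2 summit value of the new region minus that of the start region of the same gene (x axis) for all pairs of a region at 120 h only and a gene (y axis, number of pairs), in each 120 h library. Rcan3 has a value in replicate 1 only, where it lies at 2.86, and Abcf1 lies near 0 in both libraries.

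The fall of the start regions after RA was tested with limma over the 15536 shared regions. Only the start regions of Abcf1 and Fem1a could be entered. The test had 62144 degrees of freedom, because the spread was pooled over all regions of the same 8 libraries. Its p-values thus treat regions as independent, while each timepoint held 2 mice. The Abcf1 start region fell by 1.45 ± 0.37 on the log2 scale (SE, 2 libraries against 2) from 0 h to 18 h (limma, Benjamini-Hochberg adjusted p = 0.00040) and fell by 1.51 ± 0.37 to 48 h (limma, adjusted p = 0.00015). The Fem1a start region fell by 1.29 ± 0.37 to 18 h (limma, adjusted p = 0.0012) and fell by 1.37 ± 0.37 to 48 h (limma, adjusted p = 0.00046). Between 18 h and 48 h the changes were -0.06 ± 0.37 at Abcf1 and -0.08 ± 0.37 at Fem1a (limma, adjusted p = 1 for both).

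On the values as deposited, most shared regions were lower at 18 h and 48 h than at 0 h. Of all shared regions, 92.3% were lower and 0.296% higher at 18 h, 93.3% were lower and 0.328% higher at 48 h, and the median changes were -1.23 and -1.36. Between 18 h and 48 h, 0.00644% of regions passed the test, with a median change of -0.13. After each library was centred on its median, the Abcf1 start region changed by -0.19 ± 0.21 to 18 h and -0.11 ± 0.21 to 48 h (limma, adjusted p = 0.76 and 0.82), and the Fem1a start region by -0.03 ± 0.20 and 0.02 ± 0.20 (limma, adjusted p = 0.97 for both). On that scale 1.47% of all regions passed the test at 18 h and 4.77% at 48 h, in either direction. The SE without centring was the same in every region because limma shrank all variances to 1 common value, so the difference in scale between libraries is part of it.

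At 120 h, given as a description, the start region changed by -0.38 ± 0.37 from 0 h at Abcf1 and by -0.02 ± 0.37 at Fem1a, where the median of all shared regions was -0.75. From 48 h it changed by 1.13 ± 0.37 at Abcf1 and 1.35 ± 0.37 at Fem1a, where the median was 0.56. With centring the change from 0 h was 0.51 ± 0.21 at Abcf1 and 0.87 ± 0.20 at Fem1a, beside a median of 0.14. At both gene starts the changes to 120 h lay above the median change of the shared regions. The share of regions above these changes is not given, so this does not set these starts apart. Contrasts with 120 h also chose the genes.

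The other regions of the genes had the values below, whereas the new ones were chosen for their own pattern. At Rcan3 the region downstream, which the table also assigns to Ncmap, had 213 and 178 before RA, 56 and 57 by 18 h, 49 and 63 by 48 h and 100 and 72 by 120 h. It was highest at 0 h. An intronic region at Mir700 had 54 and 53 at 0 h and 47 in 18 h replicate 2, and an upstream region had 84 and 71 at 0 h and 59 in 18 h replicate 2. Neither had a peak at 48 h or 120 h. A further upstream region had 1 peak, of 55 in 0 h replicate 1. At Abcf1 a region 9354 bp upstream, also assigned to Gnl1 and Prr3, had 195 and 263 before RA, 82 and 126 by 18 h, 89 and 137 by 48 h and 167 and 100 by 120 h. At Txnl4a the region 6190 bp upstream, also assigned to Rbfa, had 158 and 302 before RA and 54 and 92 by 18 h. By 48 h it had 95 and 88, and by 120 h 185 and 138. These upstream regions of Abcf1 and Txnl4a each held a CpG island. The region downstream of Txnl4a, also assigned to Hsbp1l1, had 211 and 224 before RA, 86 and 90 by 18 h, 47 and 95 by 48 h and a single peak of 60 by 120 h. Low regions downstream completed the set. At Abcf1 the nearer had 74 and 55 before RA, 45 in 48 h replicate 1 and 57 in 120 h replicate 1, and the farther had 51 in 48 h replicate 2 and 31 in 120 h replicate 2. The region downstream of Fem1a, also assigned to Ticam1, had 61 and 97 before RA and 61 and 56 by 120 h, with no peak in between.

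Of the other regions, the 3 with a peak in all 8 libraries were entered in the same fit after the values were seen. From 0 h to 18 h the region downstream of Rcan3 fell by 1.79 ± 0.37 (limma, adjusted p = 3.83e-05), the region upstream of Txnl4a fell by 1.63 ± 0.37 (limma, adjusted p = 0.00012) and the region upstream of Abcf1 fell by 1.16 ± 0.37 (limma, adjusted p = 0.0031). From 0 h to 48 h their changes were -1.81 ± 0.37, -1.26 ± 0.37 and -1.04 ± 0.37 (limma, adjusted p = 1.01e-05, 0.0012 and 0.0065). With centring the changes to 18 h were -0.53 ± 0.23, -0.37 ± 0.25 and 0.10 ± 0.21, and those to 48 h were -0.42 ± 0.23, 0.14 ± 0.25 and 0.36 ± 0.21. With centring none passed the threshold (limma, lowest adjusted p = 0.33), and the direction turned at Abcf1 for both timepoints and at Txnl4a for 48 h.

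**Figure D4:**
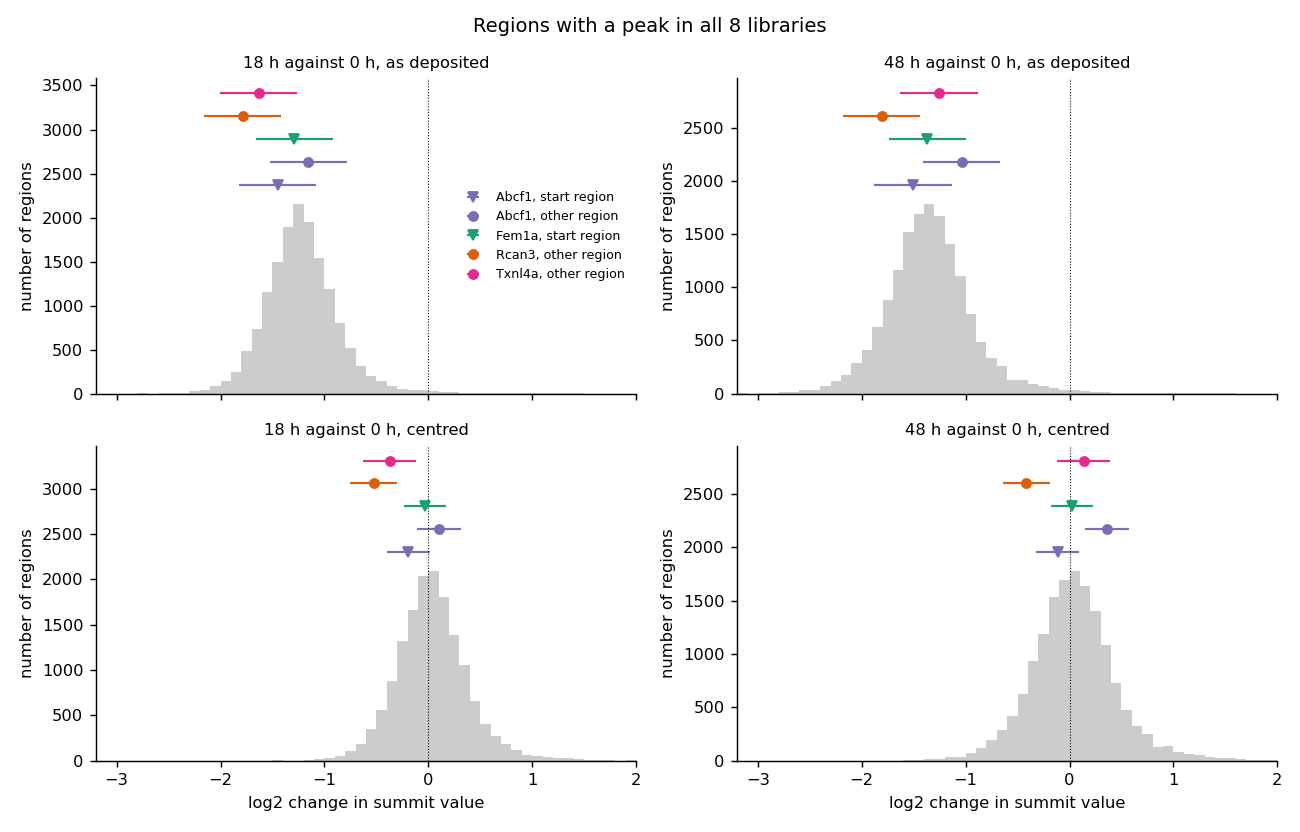
Log2 change in summit value from 0 h to 18 h (left) and 48 h (right) of the 15536 shared regions (histograms, number of regions) and of the 5 shared regions of the 4 genes (points with SE, raised for display), as deposited (top) and centred on library medians (bottom). As deposited all 5 lie below 0 with the bulk of regions, and after centring they lie between -0.53 and 0.36.

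The number of peaks assigned to each gene did not follow the new regions in every case. Rcan3 had 5 peaks in both libraries before RA, 1 and 4 by 18 h, 2 in both by 48 h and 3 and 2 by 120 h, where 3 of its 6 regions had no peak at 120 h. Abcf1 had 2 or 3 in every earlier library and 4 in both 120 h libraries. Fem1a had 3 and 5 before RA, 2 or 3 in the next 4 libraries, and 4 in both 120 h libraries. Txnl4a had 3 and 2 before RA, 2 in each library of 18 h or 48 h, and 3 and 2 by 120 h.

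**Figure D5:**
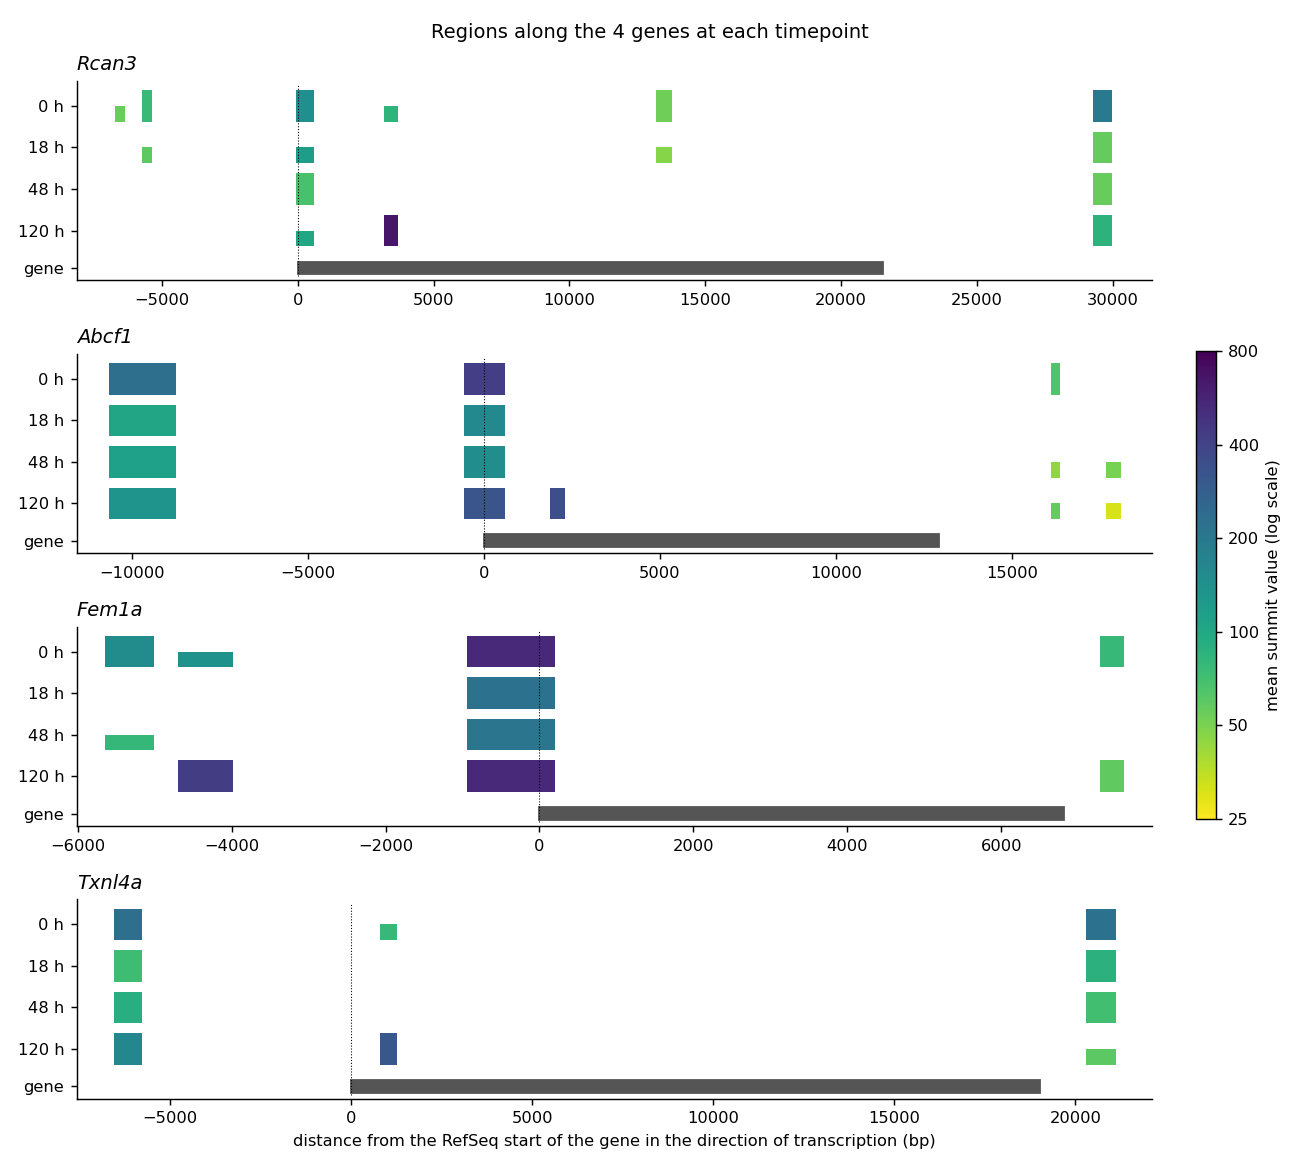
Regions of the 4 genes by distance from the RefSeq start of the gene in the direction of transcription (bp), 1 row per timepoint, with boxes of full height where both libraries had a peak and of lower height where 1 had. Colour gives the mean summit value (log scale) of the libraries with a peak. Narrow boxes are widened for display. The new regions lie inside Rcan3, Abcf1 and Txnl4a and upstream of Fem1a.

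Genes with known ties to the 4 were examined at their starts. The lists covered calcineurin subunits and regulators, ABCF proteins and eIF2 subunits, FEM1 proteins with the CUL2 ligase, and proteins of the U5 particle with relatives of Txnl4a. From 0 h to 18 h, 19 of the 22 start regions that could be tested were lower and 0 were higher, beside 92.3% of all regions lower. By list these were 5 of 5, 3 of 3, 5 of 6 and 6 of 8, with median changes of -1.16, -1.28, -1.22 and -1.08. To 48 h, 21 of 22 were lower and 0 were higher, beside 93.3%. The list medians were then -1.30, -1.41, -1.32 and -1.19, beside -1.36 for all regions.

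Of the 25 of these genes in the table, 3 (12%) had a region at 120 h only, beside 7.08% of all genes with a called region. None was above 90 in the lower library. Abcf2, a relative of Abcf1, had 1 at place 177 with values of 299 and 90, and its start region had 796 and 683 before RA, 245 and 349 by 18 h, 262 and 277 by 48 h and 598 and 407 by 120 h. Ppp3ca, a catalytic subunit of calcineurin, had 1 at place 970 with 45 and 46. Snrnp40, a protein of the U5 particle, had 1 at place 1502 with 30 and 38. No gene of the FEM1 list had any.

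In the FEM1 list, Fem1b had the smallest fall and Tceb1, an elongin subunit, the largest. The Fem1b start region had 152 and 216 before RA, 103 and 120 by 18 h, 109 and 137 by 48 h and 207 and 151 by 120 h. Its change to 48 h was -0.57 ± 0.37 (limma, adjusted p = 0.13), and with centring it rose by 0.82 (limma, adjusted p = 0.033). Tceb1 had 637 and 616 at 0 h and 148 and 172 at 48 h, a change of -1.97 ± 0.37 (limma, adjusted p = 2.02e-06), which with centring was -0.58 (limma, adjusted p = 0.13). With centring Fem1b was the 1 start region of the 4 lists that passed the threshold at 48 h, where 4.77% of all regions did.

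Start regions with a course most like those of Abcf1 and Fem1a were sought among 8970 start regions by Pearson's r of median-centred log2 values over the 8 libraries. For Abcf1 they were those of Nxn (r = 0.992), Mrps24 (r = 0.991) and Atp6v0a2 (r = 0.988). For Fem1a they were those of Eif2s2 (r = 0.996), Tprgl (r = 0.989) and Pnn (r = 0.989). Eif2s2, a subunit of the initiation factor eIF2, had 385 and 473 before RA, 167 and 186 by 18 h, 149 and 173 by 48 h and 452 and 321 by 120 h. All regions come from the same 8 libraries, and r is given as a description.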

How the data were processed

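The members and lists were chosen with earlier results of these data known. The authors aligned reads to mm10 with BWA 0.7.12, brought libraries to equal tag numbers and called peaks per library with MACS2 2.1.0 without a control, and per the methods tags were extended to 200 bp and coverage was taken in bins of 32 nt. The deposited table gives 2 kinds of signal per peak, at the summit and averaged over its length, with genes within 10 kb assigned by the authors. Read counts were not analysed here, so the depth behind a peak is unknown and no counting interval was given.

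Overlapping peaks (1 bp or more) gave 87144 regions, with Python 3.11.15, pandas 2.3.3 and numpy 2.4.6. A start region lay within 1000 bp of the gene's start as the table gives it. Where a library had more than 1 peak in a region, the highest summit was used. The 15536 regions that every library shared entered limma 3.58.1 (R 4.3.3, no block, no trend) as log2 summit values, adjusted by Benjamini-Hochberg with 0.05 as threshold. Joining and fit were tested on simulated data. For the fit these held independent noise and few changed regions. They held no shift of whole libraries, so they do not bear on such a shift. Replicates are separate mice, and all 8 libraries share 1 estimate of the spread. Sequence came from GRCm38 with pysam 0.24.0, and the motif search over whole regions was added after the data were seen. The genes named were the 4 members, the regions at 120 h only down to 3 places below the last of them, genes sharing their regions, listed genes with a region at 120 h only or otherwise the largest and smallest change, and the 3 start regions most alike. Browser tracks, the merged region list and links were not used. One region that this rule names is not reported here. Alternatives are in the closing section.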

Additional observations from a re-analysis of the deposited data

How the results depend on the processing

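The 4 new regions were all called with an overlap of 50% of both peaks, with summit values of at least 50, with the 24643 highest peaks of each library and with 100 bp windows either side of the summits. With a peak in either replicate sufficing, 1 (Abcf1) was left. With single libraries left out the count ran from 2 to 5. It was 2 (Abcf1 and Txnl4a) without 0 h replicate 1, 3 without 0 h replicate 2 and 5 without 120 h replicate 1. The log2 difference between new and start region became 2.24 at Rcan3, 0.13 at Abcf1 and -0.48 at Fem1a with the mean signal. At Fem1a it went from -0.085 to -0.52 in replicate 1 and from -0.66 to -0.44 in replicate 2. The mean number of peaks at 120 h minus that of earlier libraries went from -0.67 to 0.50 at Rcan3 with equal numbers of highest peaks and from 1.17 to 0.17 at Fem1a with only peaks in the gene or near its start. At Txnl4a it was 0.33 and ran from -0.17 without 120 h replicate 1 to 0.83 without 120 h replicate 2.

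Falls of start regions after RA passed the threshold with the mean signal, the intensity trend, only the libraries compared, values of at least 50 and each library left out. With centring, alone or with a replicate block, Abcf1 gave -0.19 at 18 h and -0.11 at 48 h, and Fem1a -0.032 and 0.022. With quantile normalization these were -0.22, -0.10, -0.063 and 0.034. Adjusted p over all alternatives ran from 1.66e-05 to 0.76 and from 1.86e-06 to 0.82 at Abcf1 and from 9.44e-05 to 0.97 and from 1.21e-05 to 0.97 at Fem1a. From 18 h to 48 h, centring, alone or with the block, gave 0.077 at Abcf1 and 0.054 at Fem1a, quantile normalization 0.11 and 0.097, and the mean signal 0.065 at Abcf1. With libraries left out this change ran from -0.28 to 0.16 at Abcf1. For the added regions, centring (alone or with the block) and quantile normalization gave 0.10 and 0.12 upstream of Abcf1 at 18 h and 0.36 and 0.41 at 48 h, and 0.14 and 0.16 upstream of Txnl4a at 48 h. Without 0 h replicate 2 the falls upstream of Abcf1 (-0.94 and -0.82) and of Txnl4a at 48 h (-0.79) missed the threshold, as did those upstream of Abcf1 without 18 h replicate 1 (-0.85) and without 48 h replicate 1 (-0.73). The region downstream of Rcan3 had a value under 50 and gave none with that limit. The replicate block alone changed no call. Same-numbered libraries deviated together with r from -0.22 to 0.25. With 2 libraries per timepoint, it cannot be told from this whether they shared more than a number. The cause of these shifts was not tested.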

Other observations

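The 3 regions at 120 h only that came next after that of Txnl4a each had a peak in 1 or 2 earlier libraries. The region at Kifc5b, a kinesin gene, had 258 and 229 at 120 h and peaks of 116 in 0 h replicate 2 and 78 in 48 h replicate 2. A region shared by Dctn4 and Rbm22 had 448 and 228 at 120 h and 71 in 0 h replicate 2. A region shared by Acbd4 and Hexim1 had 236 and 214 at 120 h, beside 202 in 0 h replicate 2 and 122 in 18 h replicate 2.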
